A study of Mus musculus with 16 samples.

Results

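The genes described here are 10 members of the interferon-type and major histocompatibility complex (MHC) class I system of the mouse, chosen by name: the IFITM genes *Ifitm1*, *Ifitm2* and *Ifitm3*, the interferon regulatory factors *Irf1* and *Irf9*, the interferon-stimulated effectors *Bst2* and *Isg15*, and the class I genes *B2m*, *H2-K1* and *H2-D1*. The choice was made with earlier results of these data known. All 10 were among the 29453 genes of the deposited matrix. They were measured in mouse chimeras. Embryonic stem cells (ESCs) that lacked *Stat3* and carried a tdTomato reporter, on the CD1 background, were placed in CD1 blastocysts with intact *Stat3*, and whole embryos were collected on embryonic days (E) 7.5 and 8.5 and one day later, at E9.5. Dissociated cells were sorted on tdTomato into donor-derived *Stat3* null cells and host-derived wild-type (WT) cells and profiled by 3′ single-cell RNA sequencing. Each of the earlier stages was covered by 2 libraries per genotype and E9.5 by 4 per genotype, which makes 16 libraries. Libraries of a group carry the letters A to D, which are only names. The E7.5 and E8.5 libraries came from pooled embryos. At E7.5 the embryos were classed by size as large or small, so libraries of a genotype may differ in size class. At E9.5 the labels number 4 embryo pools, but the methods describe 2 embryos, handled one by one, so libraries of a genotype may share an embryo. All p-values measure the spread between libraries, and those that count the E9.5 libraries as separate samples are too small if embryos were shared. The names in the cell table tie a library to its stage and gate but not to an embryo pool. The null allele has a neomycin resistance gene in place of exons near the 3′ part of *Stat3*. All null cells thus descended from cultured ESCs and all WT cells from the blastocyst, so genotype and origin cannot be told apart in any comparison below. The methods do not give the number of injected ESC lines, so null libraries may share a line. No p-value here measures a spread between lines. CD1 mice are outbred and the H2 genes differ between haplotypes, so a difference in haplotype between donor and host cells is part of what cannot be told apart for *H2-K1* and *H2-D1*. Reads were mapped to mm10, the genome of the C57BL/6J strain, so a CPM of these genes counts reads that map to that strain's alleles, and whether donor and host alleles map equally well was not tested.

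Interferons act through receptors coupled to JAK kinases and STAT factors. IRF9 is the DNA-binding part of the complex that type I interferons bring to the interferon-stimulated response element, and STAT3 dimers bind elements of the kind called gamma-activated sites. IRF1 is itself a product of STAT signalling and raises class I and peptide-processing genes. The class I heavy chains encoded by *H2-K1* and *H2-D1* reach the cell surface only with beta-2-microglobulin, the product of *B2m*, and show peptides to T cells and natural killer cells. IFITM proteins sit in membranes and hinder viral entry, and *Ifitm1* and *Ifitm3* are also familiar as early mesoderm and germ cell genes of the mouse embryo. *Bst2* encodes tetherin, which holds budding virus on the cell, and *Isg15* encodes a ubiquitin-like modifier.

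Because these genes are commonly linked to STAT and IRF binding, the 250 bases before each RefSeq start site (GRCm38.p6) were searched on both strands for 4 motifs. The gamma-activated site was written as TTCNNNGAA, the interferon-stimulated response element as GAAANNGAAA, a variant form of that element as GAANNGAAAC, which can overlap it, and the kappa B element as GGGNNTTCCC. No motif was fixed in advance, and the variant form was chosen after the sequences had been read. In that window 7.02% of 32851 promoters held the first motif, 2.98% the second, 1.45% the third and 1.53% the fourth. Among the 10 members, the second motif was found for 4 (*Ifitm2*, *Bst2*, *Isg15*, *B2m*), the first for 2 (*Irf1*, *Bst2*), the third for 3 (*Isg15*, *H2-K1*, *H2-D1*) and the fourth for 2 (*H2-K1*, *H2-D1*). None of these letters was found for *Ifitm1*, *Ifitm3* or *Irf9*, which says only that they are not in this window. The last 180 bases before the start are shown for 4 members with clustered or single matches and for the *H2* pair, 5′ to 3′ along each gene's strand, with every match in capitals.
Isg15 (chr4:156200819-156200998, minus strand): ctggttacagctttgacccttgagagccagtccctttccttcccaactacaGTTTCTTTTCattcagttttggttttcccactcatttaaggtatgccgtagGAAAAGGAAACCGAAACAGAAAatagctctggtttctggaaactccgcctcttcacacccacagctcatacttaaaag
Bst2 (chr8:71537473-71537652, minus strand): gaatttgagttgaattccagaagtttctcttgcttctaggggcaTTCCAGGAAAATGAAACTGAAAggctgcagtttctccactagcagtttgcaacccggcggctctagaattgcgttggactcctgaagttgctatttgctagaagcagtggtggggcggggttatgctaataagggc
Irf1 (chr11:53769834-53770013, plus strand): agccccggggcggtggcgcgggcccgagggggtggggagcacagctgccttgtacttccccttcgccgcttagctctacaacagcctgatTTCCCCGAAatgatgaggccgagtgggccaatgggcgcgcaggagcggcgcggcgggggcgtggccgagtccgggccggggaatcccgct
B2m (chr2:122147507-122147686, plus strand): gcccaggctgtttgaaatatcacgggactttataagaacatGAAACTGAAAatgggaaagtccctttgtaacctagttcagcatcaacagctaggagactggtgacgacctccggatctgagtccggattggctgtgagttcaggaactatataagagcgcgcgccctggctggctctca
H2-K1 (chr17:34000348-34000527, minus strand): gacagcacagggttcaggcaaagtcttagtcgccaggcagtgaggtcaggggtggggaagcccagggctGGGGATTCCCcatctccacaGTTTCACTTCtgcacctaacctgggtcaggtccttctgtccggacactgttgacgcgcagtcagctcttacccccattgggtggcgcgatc
H2-D1 (chr17:35262914-35263093, plus strand): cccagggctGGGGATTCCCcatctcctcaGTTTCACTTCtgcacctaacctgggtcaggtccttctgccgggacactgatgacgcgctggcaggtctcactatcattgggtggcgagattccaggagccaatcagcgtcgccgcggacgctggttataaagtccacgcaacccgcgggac

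In the *Isg15* window 3 matches of the response element overlap in a run from base -78 to base -57 before the start. In *Bst2* a gamma-activated site at -136 runs into a pair of response elements that end at -115. The single gamma-activated site of *Irf1* lies at -90 to -82, and the *B2m* element at -139 to -130. The *H2* promoters carry the same pair of matches in the same order, and without gaps 166 of 190 aligned bases (87.4%) were the same in *H2-K1* and *H2-D1*. A match is a description of letters, and no binding was measured here.

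In GRCm38 the IFITM and class I heavy chain genes lie in groups: *Ifitm2* (7:140954837-140955987), *Ifitm1* (7:140967221-140969825) and *Ifitm3* (7:141009586-141010770) side by side, *H2-K1* (17:33996017-34000347) and *H2-D1* (17:35262730-35267499) in the H2 complex. *B2m* (2:122147686-122153083), *Isg15* (4:156199424-156200818), *Bst2* (8:71534255-71537456), *Irf1* (11:53770014-53778374) and *Irf9* (14:55603571-55610030) lie singly. These spans do not always begin at the RefSeq start sites used above. For *H2-D1* the window printed before the RefSeq start lies inside the span given here. The IFITM genes are close paralogs, as are the class I heavy chains, and how reads shared by such copies were counted was not examined, so values of single copies are uncertain.

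Of 41832 cells, 37841 were analysed, from 360 to 4327 per library with 20682659 to 138613245 UMIs (unique molecular identifiers, here counted transcripts) per library. They fell into 87 cell types, which are the study's labels transferred from a gastrulation atlas. Levels are given as CPM, the UMIs of the gene scaled by all UMIs of the library or cell type, and a level is compared only within a gene. In whole libraries *Stat3* itself measured 6.14 to 9.31 CPM in WT and 1.16 to 2.53 CPM in null libraries, so no null library reached a WT library. A tdTomato UMI was found in 97.2% of null-sorted cells of E7.5 library A but in 72.3% of E8.5 library B. Libraries shared 488 cell barcodes in all. A whole-library value also carries the mix of cell types, so null and WT were compared within types and over types of equal weight as well.

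**Figure D1:**
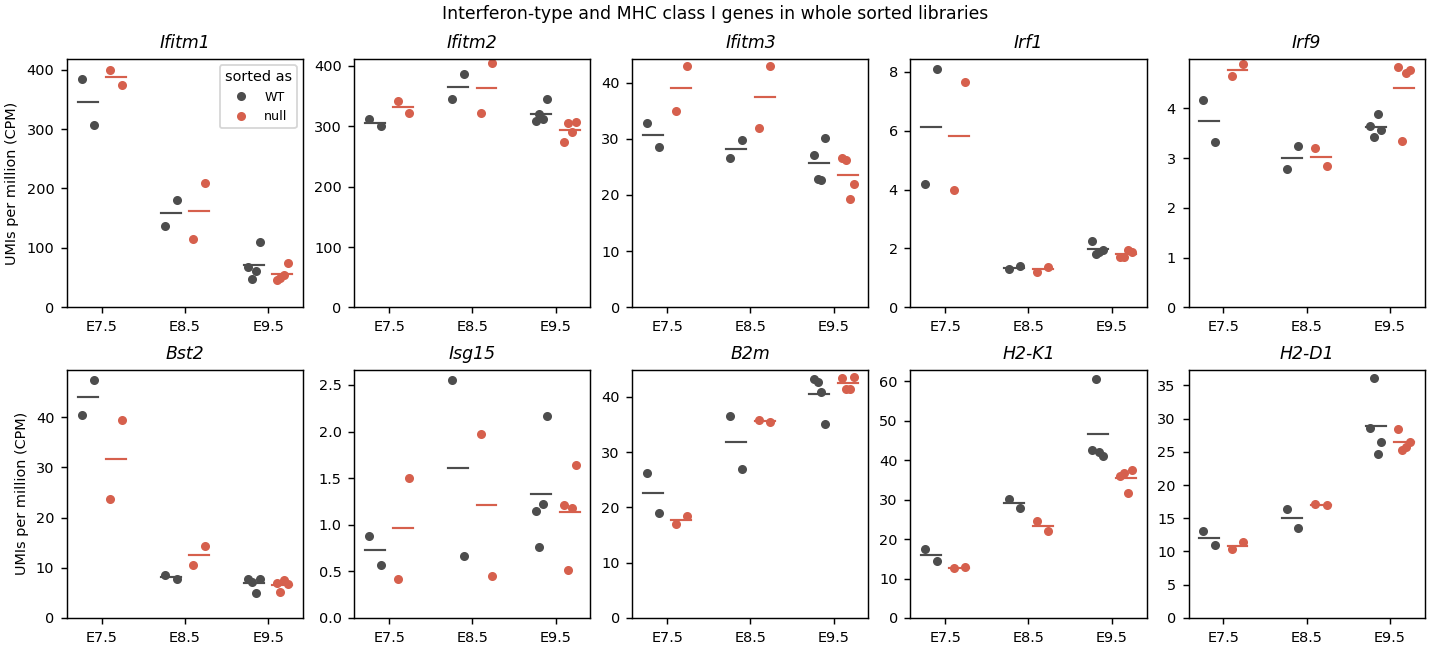
CPM of each of the 10 genes in each of the 16 libraries (points) with the group mean (line), WT in grey and null in red, by stage. *H2-K1* is the gene whose null libraries lie below the WT libraries at every stage, while *Bst2*, *Irf1* and *Ifitm1* are high at E7.5 and the class I genes are high at E9.5.

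Cell types are ranked by WT mean only where 2 or more WT libraries of the stage held over 15 cells of the type, and smaller types, left out of the ranking, can lie higher. In WT cells the class I genes differed in where they were high. *B2m* was highest, among the ranked types of E8.5 and E9.5, in cells with the label erythro-myeloid progenitors (EMP). These cells carried myeloid markers, as given below. At E9.5 the 4 WT libraries gave 289, 319, 288 and 177 CPM in EMP, against a median of 34.1 CPM over 40 cell types. All 4 EMP values lay above every library of every other ranked type. Megakaryocyte progenitors (95.1 CPM) and venous endothelium (65.7 CPM) followed in the ranking, and pharyngeal endoderm (16 CPM), surface ectoderm (14.8 CPM) and limb ectoderm (13.6 CPM) were lowest. At E8.5 EMP was highest among ranked types, with 254 and 102 CPM in the pair of WT libraries, followed by hindbrain floor plate at 51.6 CPM. Below the limit, YS (yolk sac) endothelium gave 166 and 74.1 CPM (35 and 14 cells) and megakaryocyte progenitors 80.6 and 61.8 CPM (25 and 13 cells), both above the floor plate.

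*H2-D1* was also high in EMP. At E9.5 it was highest among ranked types in megakaryocyte progenitors (130 and 91.2 CPM in the pair of WT libraries that held enough cells) and in EMP (88.3, 128, 104 and 86.5 CPM). These ranges overlap, so the order of the leading types is not settled. The unranked YS endothelium gave 74.7, 251, 116 and 156 CPM from 11, 6, 7 and 27 cells, a range that overlaps both. Dorsal midbrain neurons came next at 68.6 CPM, and mesenchyme was lowest at 8.35 CPM, next to epicardium at 9.25 CPM and the cardiopharyngeal progenitors of the first heart field (FHF) at 9.44 CPM.

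Among ranked types *H2-K1* was highest in neural types at E8.5 and E9.5, and in intermediate mesoderm (28.9 CPM) at E7.5. Its highest means at E9.5 were in late dorsal forebrain progenitors (134 CPM, libraries from 101 to 176), midbrain/hindbrain boundary (125 CPM, 102 to 161) and spinal cord progenitors (112 CPM, 103 to 124). The ranges of these neighbours overlap. The unranked YS endothelium gave 62.9, 147, 81.9 and 88.7 CPM from 11, 6, 7 and 27 cells, a range that overlaps theirs. At the other end stood mesenchyme (10.9 CPM), epicardium (10.8 CPM) and erythroid cells (9.73 CPM). In EMP the 4 WT libraries gave 42.3, 67.8, 46.6 and 47.4 CPM, below each of the 3 leading neural types. At E8.5 the leaders were hindbrain floor plate (115 and 66.4 CPM), spinal cord progenitors (95.2 and 70.3 CPM) and dorsal spinal cord progenitors (78.5 and 81.4 CPM), with erythroid cells lowest at 2.18 CPM.

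Among the IFITM genes, *Ifitm1* and *Ifitm2* were highest at E9.5, among ranked types, in presomitic mesoderm. *Ifitm1* measured 1276 CPM in presomitic mesoderm at E9.5 (libraries at 1199 and 1352) and 1174 CPM in somitic mesoderm (858 and 1491), and the next type, posterior somitic tissues, stood at 257 CPM. The presomitic and somitic ranges overlap, and both lie above all other ranked types. The unranked PGC (primordial germ cells) gave 582, 1240 and 2027 CPM from 6, 1 and 8 cells. The lowest types were erythroid cells (3.91 CPM), megakaryocyte progenitors (5.52 CPM) and the midbrain/hindbrain boundary (6.63 CPM). At E7.5 intermediate mesoderm led with 1149 CPM and extra-embryonic (ExE) ectoderm was lowest with 27.8 CPM.

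*Ifitm2* was more even over types. Presomitic mesoderm was highest of the ranked types at E9.5 with 927 CPM, then somitic mesoderm with 713 CPM and pharyngeal mesoderm with 552 CPM, around a median of 344 CPM, and the few PGC gave 677, 893 and 1107 CPM. Hindbrain neural progenitors (142 CPM), dorsal spinal cord progenitors (133 CPM) and erythroid cells (30.3 CPM) were lowest. At E7.5 *Ifitm2* was highest in ectoderm (381 and 572 CPM), with the libraries of intermediate mesoderm (384 and 415 CPM) in the same range, and lowest in visceral endoderm (43.5 CPM). *Ifitm3* was high in EMP and surface layers and low in erythroid cells. At E9.5 EMP (167 CPM), surface ectoderm (164 CPM) and limb ectoderm (146 CPM) were highest, with overlapping libraries, and dorsal midbrain neurons (5.71 CPM), frontonasal mesenchyme (3.10 CPM) and erythroid cells (1.43 CPM) were lowest. At E7.5 blood progenitors led the ranked types with 88.3 CPM, below the unranked PGC at 2170 and 911 CPM from 1 and 5 cells. PGC also stood above the ranked types at E9.5, with 772, 1148 and 1884 CPM in the WT libraries that held 6, 1 and 8 of them.

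*Isg15* was concentrated in EMP and megakaryocyte progenitors. It measured 25.3, 11.8, 17 and 77.7 CPM in the 4 WT libraries of EMP at E9.5 and 32.3 and 28.7 CPM in megakaryocyte progenitors, against a median of 0.279 CPM over types. The next type, YS mesothelium, stood at 3.04 CPM. No *Isg15* UMI was counted in 11 of 40 types, where a count of 0 allows up to 0.419 to 2.88 CPM. In EMP at E8.5 the WT libraries gave 152 and 28.0 CPM, from 146 and 11 UMIs.

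*Bst2* was highest among ranked types in EMP at E9.5, with 122, 147, 99.1 and 112 CPM, above venous endothelium (36.6 CPM) and epidermis (29.5 CPM). The unranked YS endothelium reached as high, with 200, 118, 164 and 193 CPM from 11, 6, 7 and 27 cells, while megakaryocyte progenitors stood at 23.8 CPM. Somitic mesoderm (0.592 CPM), sclerotome (0.730 CPM) and posterior somitic tissues (0.770 CPM) were lowest. At E7.5 *Bst2* was highest among ranked types in visceral endoderm (121 CPM), ExE ectoderm (87.2 CPM) and caudal epiblast (68.4 CPM) around a median of 55.3 CPM. The unranked epiblast gave 79.8 and 111 CPM from 9 and 125 cells, and PGC 241 and 95.1 CPM from 1 and 5 cells. The 4 lowest types were lateral plate mesoderm (5.90 CPM), intermediate mesoderm (5.28 CPM), mesenchyme (4.74 CPM) and paraxial mesoderm (3.95 CPM).

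The regulatory factors stood at a few CPM in most types. *Irf1* was highest among ranked types in EMP at E9.5 (11.2, 7.10, 11.1 and 7.82 CPM), then in the cardiopharyngeal progenitors of the second heart field (SHF, 8.15 CPM) and of the FHF (6.95 CPM), with overlapping libraries. It was lowest in dorsal hindbrain progenitors (0.260 CPM), venous endothelium (0.251 CPM) and erythroid cells (0.149 CPM). At E7.5 intermediate mesoderm (18.3 CPM) and lateral plate mesoderm (16.9 CPM) led. *Irf9* varied least, from 1.46 CPM in late dorsal forebrain progenitors to 8.68 CPM in amniotic ectoderm at E9.5, with most libraries overlapping between types.

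**Figure D2:**
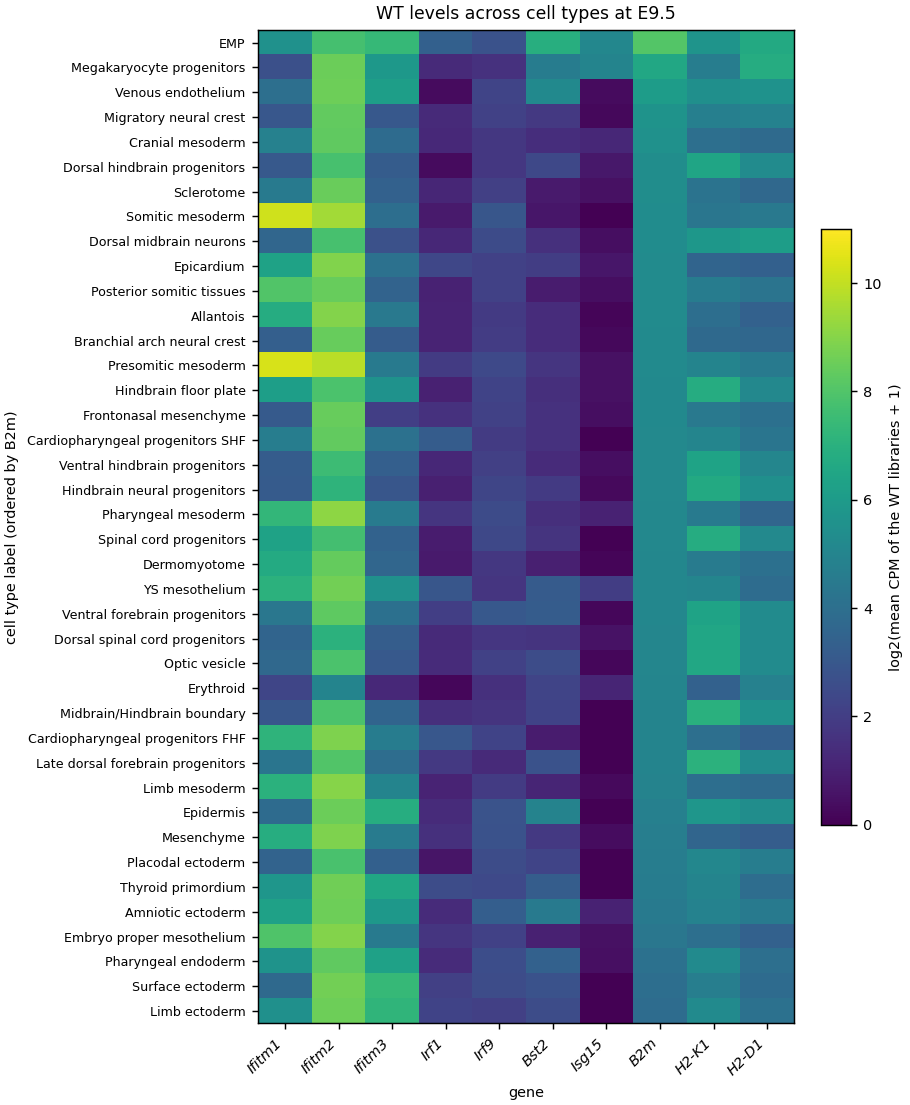
Colour gives log2 of the mean WT CPM plus 1 for each gene (columns) in each of 40 cell types (rows, ordered by *B2m*) at E9.5, and is to be read down a column. The top row, EMP, is high for *B2m*, *H2-D1*, *Bst2*, *Isg15* and *Ifitm3*, the neural rows are high for *H2-K1*, and presomitic and somitic mesoderm are high for *Ifitm1*.

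Among the 40 ranked types, cells labelled EMP held the highest mean WT level of *B2m*, *Bst2*, *Isg15*, *Irf1* and *Ifitm3* at E9.5. Under the limit, PGC were higher for *Irf1* too, at 28.0, 18.2 and 36.7 CPM from 5, 1 and 10 UMIs. The label was checked against markers. All 13 myeloid markers, *Csf1r*, *Spi1* and *C1qa* among them, had UMIs in these cells, with a sum of 1805 to 3955 CPM over the WT libraries at E9.5 and 834 to 1685 CPM at E8.5, while the 7 erythroid markers summed to 18.9 to 41.9 CPM at E9.5. In hindbrain floor plate the myeloid sum was 7.16 to 12.8 CPM. EMP is therefore used here as the name of a transferred label only. The part of the myeloid content in the levels above was not tested. Between the pair of E8.5 WT libraries EMP differed widely (*Ifitm3* at 182 and 10.2 CPM, *Isg15* at 152 and 28.0 CPM), from 27 and 21 cells.

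Other genes of the system, from lists named for the pathway, were also often highest in EMP. At E9.5 this held for 27 of 54 other interferon-stimulated genes, 8 of 16 genes of peptide processing and loading, 6 of 13 interferon receptors and JAK-STAT genes, 6 of 13 sensors of nucleic acids and 4 of 9 other interferon regulatory factors, but for 2 of 17 other class I heavy chains, 2 of 10 class II genes and regulators and 1 of 4 other IFITM genes. These counts use no minimum level, and the same share over all 21275 genes kept for tests was 6.76%. At E8.5 the counts, in the same order, were 33 of 54, 9 of 16, 5 of 13, 2 of 13, 6 of 9, 1 of 17, 0 of 10 and 1 of 4, with 7.29% of all genes. These counts rest on means. Every EMP library lay above the median type for 25 of the 54 other interferon-stimulated genes at E8.5 and for 31 at E9.5. *Irf8*, a factor of the myeloid lineage, stood at 113 CPM in EMP against a median type of 1.86 CPM. The immunoproteasome subunits *Psmb8* (28.3 against 0 CPM), *Psmb9* (13.2 against 0.106 CPM) and *Psmb10* (180 against 25.1 CPM) had the same pattern. These types were assigned from expression, so the levels are a description with no test.

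**Figure D3:**
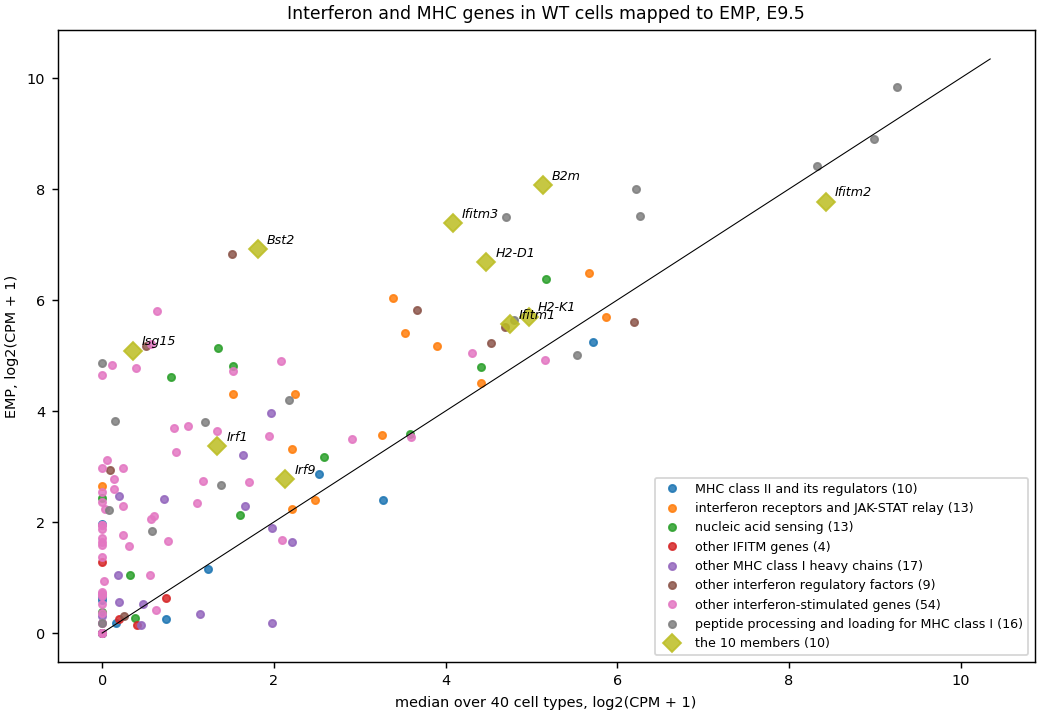
Each point is a gene of the interferon and MHC lists at E9.5, its WT level in EMP (y axis) against its median over 40 cell types (x axis), both as log2 of CPM plus 1, with the line of equal levels and the 10 members as labelled diamonds. Of the 10 members, 9 lie above the line and *Ifitm2* lies below it.

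The genes whose WT pattern came closest over 87 pairs of cell type and stage were found by Pearson's r of log2(CPM + 1) among 7737 genes above 10 CPM on average. *Isg15* was most like *Fcer1g* (r = 0.83), *Plek* (0.79) and *Fermt3* (0.78), and *Bst2* most like *Gmfg* (0.83), *Syngr2* (0.79) and *Cd9* (0.79). *H2-K1* was most like *Sox1* (0.81), *Rfx4* (0.80) and *Mir124-2hg* (0.79). *H2-D1* was most like *H2-K1* (0.73), then *Srgap3* (0.72) and *Miat* (0.68), the only case of a member among another's nearest 3. For *B2m* the nearest were *Minos1* (0.68) and *Rasa3* (0.67), and for *Ifitm2* *Gng5* (0.74), *Ptgis* (0.70) and *Rnf219* (0.70). *Ifitm1* (*Ndufa4* at 0.64, *Cdx4* at 0.63, *Atp5j2* at 0.63), *Ifitm3* (*F11r* at 0.65, *Klk8* at 0.62, *Smagp* at 0.58), *Irf1* (*Usp8* at 0.58, *Cst3* and *Crot* at 0.56) and *Irf9* (*Ppp1r21* at 0.56, *Phkb* at 0.53, *Stard10* at 0.52) had weaker neighbours. The points share libraries and depth, and r is given as a description.

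Over time in WT cells *H2-K1* rose at both steps, *Bst2* and *Irf1* fell after E7.5 and *Ifitm1* fell after E8.5. *H2-K1* measured 17.6 and 14.5 CPM in WT libraries at E7.5, 30.3 and 27.9 CPM at E8.5 and 42.7, 60.6, 42.2 and 41.1 CPM at E9.5, so that no stage overlapped with the next. Its log2 fold change was 1.04 ± 0.17 (SE) from E7.5 to E8.5 (adjusted p = 0.000275, edgeR quasi-likelihood test with Benjamini-Hochberg adjustment over all genes, used for all p-values of this kind) and 0.42 ± 0.14 from E8.5 to E9.5 (adjusted p = 0.0299).

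*H2-D1* rose from 13.1 and 11 CPM to 16.4 and 13.6 CPM and then to 28.6, 36.1, 24.6 and 26.5 CPM, by 0.49 ± 0.16 (adjusted p = 0.0197) and 0.69 ± 0.13 (adjusted p = 0.00118). With CPM averaged over the 2 cell types that E7.5 and E8.5 shared, in place of whole libraries, the first of these steps turned to -0.32 (limma, adjusted p = 0.460). *B2m* rose by 0.68 ± 0.15 from E7.5 to E8.5 (adjusted p = 0.00212), from 26.2 and 19.0 CPM to 36.6 and 26.9 CPM, ranges whose gap is small, and its later step of 0.08 ± 0.12 did not pass (adjusted p = 0.613).

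*Bst2* fell from 40.5 and 47.4 CPM at E7.5 to 8.48 and 7.85 CPM at E8.5, by 2.26 ± 0.27 on the log2 scale (adjusted p = 3.93e-05). *Irf1* fell from 4.20 and 8.09 CPM to 1.30 and 1.39 CPM, by 2.04 ± 0.31 (adjusted p = 0.000166). In both genes every E8.5 library lay under every E7.5 library. *Ifitm2* rose by 0.43 ± 0.10 from E7.5 to E8.5 (adjusted p = 0.00293) and fell by 0.45 ± 0.08 from E8.5 to E9.5 (adjusted p = 0.000877). *Ifitm1* fell by 1.41 ± 0.30 from E8.5 to E9.5 (adjusted p = 0.00324), from 137 and 181 CPM to 67.1, 48.5, 61.2 and 110 CPM, after a step of -0.95 ± 0.36 before (adjusted p = 0.0518). *Ifitm3*, *Irf9* and *Isg15* passed at neither step. In all 6 of 10 members were called from E7.5 to E8.5, where 44.8% of all 15567 genes tested were, and 4 of 10 from E8.5 to E9.5, where 40.4% were, so the members' shares were near those of all genes.

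Whole-library values also follow the mix of cell types. Within the 31 types with enough WT cells at both E8.5 and E9.5, *H2-D1* was higher at E9.5 in 27 (median log2 change 0.67) and *H2-K1* in 25 (0.28), while *Ifitm1* was lower in 29 (-1.34) and *Ifitm2* in 28 (-0.31). For *B2m* 20 types were higher and 11 lower. Between E7.5 and E8.5 only 2 types were shared, and in both *Bst2* and *Irf1* were lower at E8.5 in every library (median log2 changes -1.05 and -1.69, against -2.26 and -2.04 in whole libraries). *Ifitm1* was higher at E8.5 in both (median 0.51), against a whole-library step of -0.95 that did not pass, and *H2-K1* was higher in both by a median of 0.39, against 1.04 in whole libraries.

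Between null and WT cells *H2-K1* was the only member called in whole libraries over all stages. Its whole-library level was lower in null cells at each stage, though at no single stage did it pass. Null libraries gave 12.6 and 12.9 CPM at E7.5, 24.5 and 22 CPM at E8.5, and 36.0, 36.7, 31.6 and 37.5 CPM at E9.5, beside the WT values given above. The groups did not overlap at any stage. Of all genes tested, all null libraries stood below all WT ones in 26.7% at E7.5, 12.1% at E8.5 and 3.57% at E9.5, and above in 14.2%, 19.2% and 3.34%. Of the 10 members 3 lay below at E7.5 (*Bst2*, *B2m* and *H2-K1*), 1 at E8.5 (*H2-K1*) and 2 at E9.5 (*Ifitm2* and *H2-K1*), and 3 lay above at E7.5 (*Ifitm2*, *Ifitm3* and *Irf9*), 3 at E8.5 (*Ifitm3*, *Bst2* and *H2-D1*) and 0 at E9.5. The E7.5 WT libraries held 114 and 167 cells of ExE ectoderm and 31 and 71 of visceral endoderm, against 2 of each in null library A. In the mean over cell types, explained below, *Bst2*, *B2m* and *Ifitm3* overlapped at E7.5. *Ifitm2* there lay below WT, while *H2-K1* stayed below and *Irf9* above. How much of the whole-library separation at E7.5 follows the cell mix was not tested. Over all stages *H2-K1* had a log2 fold change of -0.34 ± 0.09 (adjusted p = 0.0396). It was 1 of 10 members called, where 4.75% of all genes were. By stage its log2 fold change was -0.29 ± 0.17 at E7.5 (adjusted p = 0.429), -0.34 ± 0.16 at E8.5 (adjusted p = 0.960) and -0.40 ± 0.11 at E9.5 (adjusted p = 0.137). The call over all stages was lost in 11 of the 16 fits that left out a library, with an adjusted p of up to 0.125 (without WT library A of E7.5), and kept in the other 5 fits. Without WT library B of E9.5, which at 60.6 CPM stood above the other WT libraries, the adjusted p was 0.00957.

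The *H2-K1* difference was also seen when every cell type weighed the same, on a measure that differs from the fold change above. For each library log2(CPM + 1) was averaged over the types with more than 15 cells in every library of the stage (7 types at E7.5, 20 at E8.5, 20 at E9.5). For *H2-K1* this mean was 4.18 and 3.90 in WT and 3.47 and 3.56 in null libraries at E7.5, and 4.80 and 4.65 in WT and 4.26 and 3.88 in null libraries at E8.5. At E9.5 it was 5.09, 5.12, 5.21 and 5.18 in WT and 4.80, 4.69, 4.59 and 4.83 in null libraries. No null library reached a WT library at any stage. The mean difference was -0.53 (p = 0.000794, exact two-sided permutation of genotype within stages, the smallest p that 2520 arrangements allow). These arrangements count the 4 libraries per genotype at E9.5, and null libraries that may share an ESC line, as separate samples. It stayed between -0.34 and -0.59, with an exact permutation p of at most 0.00476, over 19 alternatives. Of the 10 members tested in this way, *Ifitm2* had a difference of -0.12 (exact permutation p = 0.0492) and the other 8 had an exact permutation p of 0.195 or more. With 10 tests *Ifitm2* is a borderline value, and it missed 0.05 under 11 of 19 alternatives. These permutation p-values are not adjusted over genes, and the share of all genes that would pass is not given here. They are thus not on the scale of the adjusted p-values above. They also do not allow for members chosen with earlier results of these data known.

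**Figure D4:**
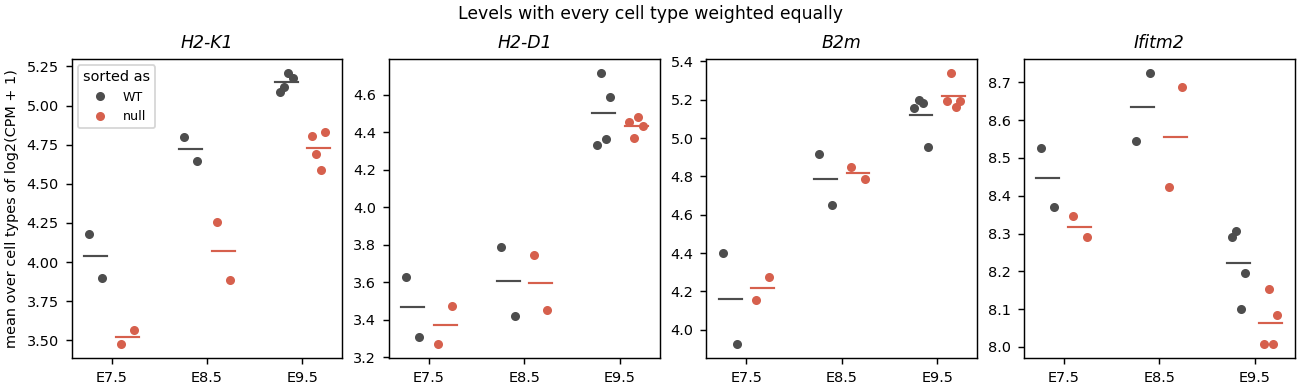
Mean over cell types of log2(CPM + 1) for 4 members in each library (points) with group means (lines), WT in grey and null in red, by stage. For *H2-K1* the null points lie below the WT points at all 3 stages, while for *H2-D1* and *B2m* the points of both groups overlap.

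The other class I members did not follow *H2-K1*. *H2-D1* measured 10.4 and 11.4 CPM in null libraries at E7.5, 17.1 and 17 CPM at E8.5 and 28.4, 25.3, 25.8 and 26.5 CPM at E9.5, above both WT libraries at E8.5 and overlapping with WT at E7.5 and E9.5 (log2 fold change over all stages -0.03 ± 0.08, adjusted p = 0.931). *B2m* measured 17 and 18.5 CPM, 35.9 and 35.5 CPM, and 43.5, 41.5, 41.5 and 43.6 CPM in null libraries (-0.03 ± 0.08, adjusted p = 0.915), below both WT libraries at E7.5 and overlapping with WT at E8.5 and E9.5. Averaged over cell types, *B2m* overlapped between the groups at every stage. Within a library the ratio of *H2-K1* to *H2-D1* CPM was 1.21 and 1.13 in null and 1.34 and 1.32 in WT at E7.5, and 1.43 and 1.29 against 1.84 and 2.06 at E8.5. At E9.5 it was 1.27, 1.45, 1.23 and 1.42 in null and 1.49, 1.68, 1.71 and 1.55 in WT. At each stage the null ratios were all lower than the WT ratios. In the RefSeq windows shown above, from the reference genome, both genes carry the same motif matches, and the promoters of the donor and host alleles were not examined.

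Within cell types the *H2-K1* difference was widespread and small. Its log2 fold change was below 0 in 7 of 7 types tested at E7.5 (median -0.62), 17 of 19 at E8.5 (median -0.37) and 30 of 37 at E9.5 (median -0.40). Over all gene and type pairs 49.7%, 49.7% and 50.3% were below 0 and the medians were 0.0014, 0.0015 and -0.0010. For *H2-D1* the counts were 5 of 7, 8 of 14 and 20 of 35. Types of a stage share libraries, so such counts are not independent. Other members also leaned to a side at E9.5, with *Ifitm1* and *Ifitm2* below 0 in 34 of 37 types each and *B2m* above 0 in 29 of 37. In the 20 types held by all 8 libraries of E9.5, null libraries were all lower than WT libraries for *H2-K1* in 5 types and all higher in 0. For *Ifitm2* these counts were 4 and 0, and of all gene and type pairs 2.37% were below and 1.96% above. Over the 37 types, null libraries with enough cells were all lower in 12 types for *Ifitm2* and 9 for *H2-K1*, and all higher in 1 and 0.

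At a threshold of adjusted p under 0.05 and an absolute log2 fold change over 1, *H2-K1* was called in no type, except in E8.5 mesenchyme when low counts were not filtered. By adjusted p alone it passed in a pair of neural types at E9.5. In dorsal spinal cord progenitors the WT libraries gave 80.0, 101, 80.8 and 103 CPM and the null libraries 73.4, 66.1, 59.0 and 57.5 CPM (log2 fold change -0.47 ± 0.10, adjusted p = 0.0313). In hindbrain neural progenitors the values were 83.3, 109, 96.9 and 115 CPM in WT and 66.5, 71.8, 44.9 and 65.5 CPM in null (-0.62 ± 0.13, adjusted p = 0.0296). In both types the null and WT libraries did not overlap.

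Larger folds that did not pass with the filter stood in E8.5 mesoderm and neural crest. Mesenchyme gave 15.5 and 15.1 CPM in WT and 6.03 and 1.80 CPM in null, from 46, 46, 18 and 2 UMIs (-1.68 ± 0.38, adjusted p = 0.283), and passed with no filter on low counts (-1.67 ± 0.37, adjusted p = 0.00546). Migratory neural crest gave 38.0 to 40.1 CPM in WT and 19.1 to 20.5 CPM in null (-0.94 ± 0.19, adjusted p = 0.112). In EMP at E9.5 the direction was the other way, at 0.60 ± 0.25, without passing (adjusted p = 0.619).

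**Figure D5:**
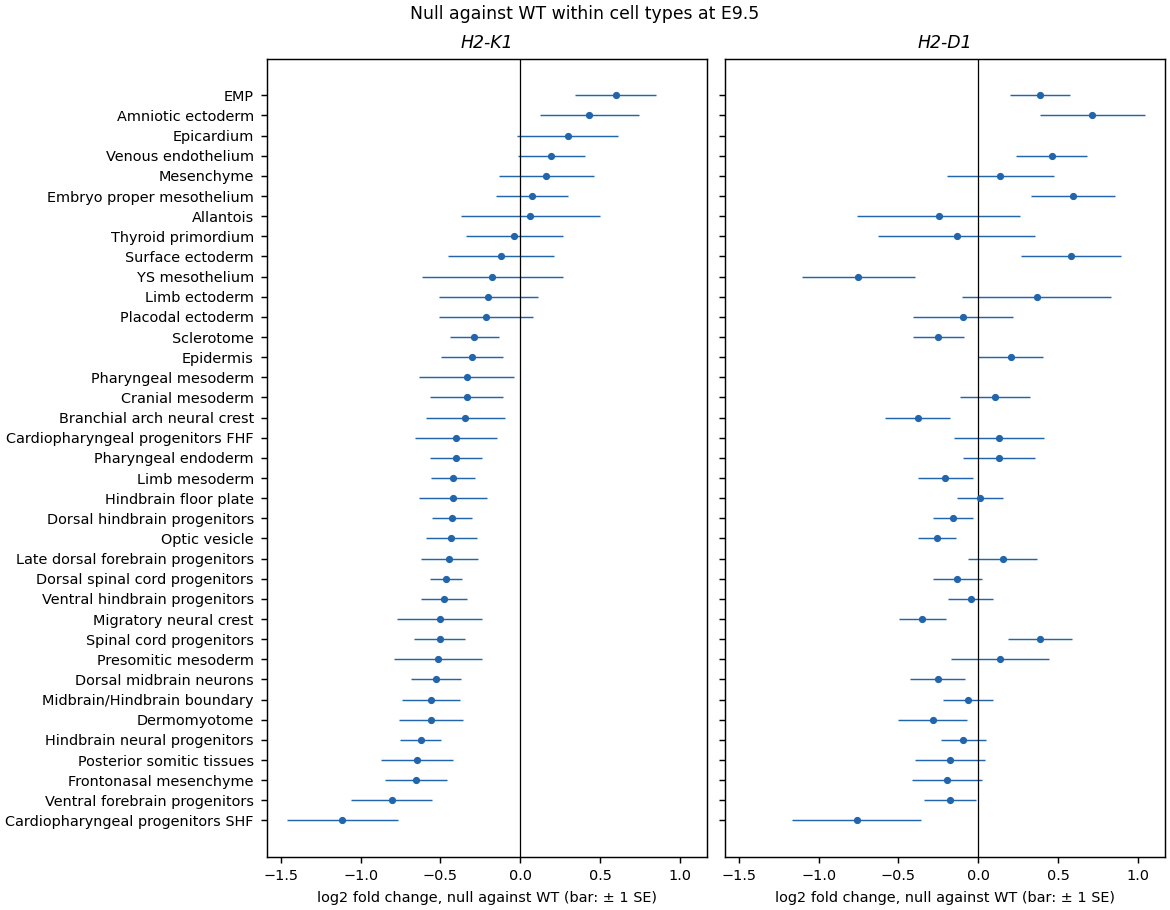
Log2 fold change of null against WT with ± 1 SE (x axis) in each of 37 cell types at E9.5 (rows, ordered by *H2-K1*) for *H2-K1* (left) and *H2-D1* (right, 35 types). For *H2-K1* 30 of 37 points lie left of 0, and for *H2-D1* 20 of 35 do.

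For *Ifitm1* the call within types was in EMP at E9.5. The 4 WT libraries gave 39.8, 48.1, 46.6 and 51.1 CPM and the null libraries with more than 15 EMP cells 6.50 and 10.9 CPM (log2 fold change -2.51 ± 0.27, adjusted p = 0.00269). The null libraries left out for holding 8 and 14 EMP cells gave 14.9 and 2.58 CPM, from 5 and 2 UMIs. All 4 null values lay below all 4 WT values. *Ifitm2* was lower in the same cells, with 231, 205, 211 and 222 CPM in WT and 129 and 123 CPM in null (-0.78 ± 0.11, adjusted p = 0.0132, within the fold threshold), and 200 and 105 CPM in the small libraries left out.

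*Ifitm3* in EMP overlapped between the groups. At E8.5 *Ifitm1* in EMP was 221 and 12.7 CPM in WT and 100 CPM in the null library with enough cells. In a fit of EMP over all stages, which takes in that spread, *Ifitm1* at E9.5 did not pass (adjusted p = 0.664), while *Ifitm2* did (adjusted p = 0.00560). The myeloid marker sum in EMP at E9.5 was 2730 to 4166 CPM in null and 1805 to 3955 CPM in WT libraries, and the erythroid sum 18.1 to 21.8 and 18.9 to 41.9 CPM. Their part in these differences was not tested.

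*Ifitm1* also passed by adjusted p alone in pharyngeal endoderm at E9.5, with 52.6, 43.5 and 51.5 CPM in WT and 24.1, 32.0, 16.3 and 26.5 CPM in null (-0.97 ± 0.17, adjusted p = 0.00488). The WT library left out for 14 cells gave 40.6 CPM, also above every null library. Over all 37 types at E9.5 the *Ifitm1* difference was below 0 in 34 (median -0.37) and the *Ifitm2* difference in 34 (median -0.15), whereas at E8.5 the counts were 10 of 20 and 15 of 20. In whole E9.5 libraries *Ifitm1* overlapped between the groups and did not pass (-0.37 ± 0.26, adjusted p = 0.819). *Ifitm2* gave 308, 320, 311 and 345 CPM in WT and 274, 306, 290 and 308 CPM in null libraries, which lay just below the WT libraries without passing (-0.13 ± 0.07, adjusted p = 0.675).

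*Ifitm3* rose in null cells of the hindbrain floor plate at E8.5, the ventral midline of the neural tube. WT libraries gave 45.4 and 50.9 CPM and null libraries 101 and 106 CPM (log2 fold change 1.11 ± 0.21, adjusted p = 0.0485). At E9.5 the same type gave 36.8, 53.3, 41.6 and 61.6 CPM in WT and 40.5, 44.8, 36.2 and 49.4 CPM in null, with the groups overlapping. The E8.5 call was lost with DESeq2 (adjusted p = 1.00), limma-voom (0.143) and total-count scaling (0.0588), at a fold that stayed between 1.02 and 1.19. In whole libraries *Ifitm3* was 0.21 ± 0.10 higher in null over all stages (adjusted p = 0.272). Its null libraries lay above both WT libraries at E7.5 (34.9 and 43.0 against 32.8 and 28.5 CPM) and at E8.5 (32.0 and 43.0 against 26.6 and 29.7 CPM) and overlapped with WT at E9.5. Averaged over cell types, *Ifitm3* overlapped between the groups at every stage.

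In total, at adjusted p under 0.05 and a fold threshold of 1 on the log2 scale, 0 member and type pairs were called at E7.5 (0.186% of all gene and type pairs), 1 at E8.5 (0.0609%) and 1 at E9.5 (0.12%). By adjusted p alone the counts were 0 (0.247%), 1 (0.0929%) and 5 (0.271%). At E7.5 edgeR gave 2 member and type pairs an unadjusted p under 0.05, for *H2-K1* and *Irf1*, and DESeq2 and limma-voom called 0. In whole libraries 0 members were called at E7.5 alone (5.34% of genes), E8.5 alone (0.212%) or E9.5 alone (1.35%), where *Irf9* at E7.5 and *H2-K1* and *Irf9* at E9.5 had an unadjusted p under 0.05. DESeq2 called 1 member at a single stage. No member's difference changed between stages past the threshold: 0 were called between E7.5 and E8.5 (1.41% of genes) and 0 between E8.5 and E9.5 (0.0321%), by edgeR and DESeq2 alike, with *Bst2* at the first step (1.02 ± 0.37) and *Ifitm3* at the second (-0.51 ± 0.23) under an unadjusted p of 0.05.

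The members not called over all stages spanned small values. *Irf9* was 0.22 ± 0.09 higher in null libraries (adjusted p = 0.188), with 4.65 and 4.88 CPM in null and 4.16 and 3.32 CPM in WT at E7.5, overlapping groups at E8.5, and 4.83, 3.34, 4.70 and 4.77 CPM against 3.65, 3.43, 3.88 and 3.56 CPM at E9.5. It was above 0 in 10 of 11 types tested at E9.5. *Irf1* (-0.10 ± 0.16), *Ifitm1* (-0.05 ± 0.19), *Bst2* (0.02 ± 0.14), *Ifitm2* (0.00 ± 0.05) and *Isg15* (-0.10 ± 0.44) had adjusted p-values from 0.810 to 1.00. The standard error of *Isg15* is large: its libraries ran from 0.421 to 2.56 CPM, and it could be tested in 1 type at E8.5 and 1 at E9.5. *Bst2* at E8.5 was 10.5 and 14.4 CPM in null and 8.48 and 7.85 CPM in WT, groups that do not overlap, without passing (0.57 ± 0.27, adjusted p = 0.958). At E7.5 it went the other way, with 23.7 and 39.6 CPM in null, both below the WT libraries at 40.5 and 47.4 CPM, also without passing (-0.45 ± 0.26, adjusted p = 0.415). Visceral endoderm and ExE ectoderm, the ranked types highest for *Bst2* at E7.5, were almost absent from null libraries. Averaged over cell types, *Bst2* overlapped between the groups at E7.5 (3.78 and 3.96 in WT, 3.61 and 3.95 in null). The part of these types in the whole-library difference was not tested.

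The wider lists showed few changes between null and WT over all stages. Of 48 other interferon-stimulated genes tested 2 were lower and 0 higher (median log2 fold change 0.02): *Ifi35* fell by 1.39 ± 0.26 and *Igtp*, an interferon-inducible GTPase, by 0.87 ± 0.23. *Ifi35* was highest in WT erythroid cells at E9.5 (49.7 CPM), and whole null libraries of E9.5 held fewer erythroid transcripts (marker sum 3.47 to 8.64 CPM against 39.5 to 124 CPM in WT). The part of that mix in *Ifi35* was not tested. Of 10 sensors of nucleic acids tested, 2 were lower (*Myd88*, the adaptor of Toll-like receptors, by 0.43 ± 0.11, and the kinase *Tbk1* by 0.15 ± 0.04). Among 9 class II genes and regulators tested 1 was higher, *H2-Eb1* by 1.72 ± 0.26, at group means of 0.835 against 0.479 CPM at E7.5, 1.24 against 0.362 CPM at E8.5 and 1.18 against 0.195 CPM at E9.5. Among 13 receptors and JAK-STAT genes, 8 other interferon regulatory factors, 3 other IFITM genes, 15 other class I heavy chains and 15 genes of peptide processing 0 were called by edgeR in either direction (medians -0.03, -0.11, 0.12, 0.05 and 0.03), where 4.75% of all genes were and the median of all genes was -0.00034.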

How the data were processed

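Whole chimeric embryos were dissociated, sorted on tdTomato and profiled with 10x 3′ v3 chemistry. The authors mapped reads to mm10 with Cell Ranger, using a GRCm38.p5 annotation with tdTomato added, and deposited UMI counts per gene and cell after their cell filters, with doublet calls, cell type labels and the percent of mitochondrial UMIs per cell, which the authors computed. Of 41832 deposited cells, 3395 called doublets and 596 cells of the WT gate that held tdTomato UMIs were left out. Counts were summed per library, and per library and cell type where a library held more than 15 cells of the type. Of 29453 genes, 8178 were left out of the tests here.

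Sums were fitted with edgeR 4.0.16 (R 4.3.3; TMM scaling, filterByExpr, quasi-likelihood test) on the whole table, with Benjamini-Hochberg adjustment over all genes of a fit. Library sums shared 1 fit of stage and genotype over all 16 libraries and were called at adjusted p under 0.05. Cell types were fitted per stage, with at least 2 libraries of each genotype, and were called if the absolute log2 fold change was also over 1. The mean over cell types of log2(CPM + 1) was tested by exact permutation of genotype within stages. Alternatives were DESeq2 1.42.0, limma 3.58.1, other scalings and filters, a minimum of 50 cells, a pseudocount of 10 and leaving out each library. Scripts were tested on simulated data. All members are named, and for each the 3 genes of most similar pattern, of which 1 is not reported here. From other lists up to 4 called genes are named, and for levels the 3 highest and 3 lowest types. The members and lists were chosen with earlier results of these data known. Limits of a count of 0 (3 UMIs) cover counting error only, and each ± beside a log2 fold change is the standard error of the fit over libraries. Libraries held 20682659 to 138613245 UMIs, and the median cell 18205 to 57791.5 UMIs.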

Additional observations from a re-analysis of the deposited data

Results flagged for a closer look

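In groups of 4 libraries, 2 of 20 gene and group combinations had a library far from the others, and chance gives about 1 in 20. *Irf9* in null libraries of E9.5 measured 3.34 CPM in library B and 4.70 to 4.83 CPM in the others (gap over range 0.915). *H2-K1* in WT libraries of E9.5 measured 60.6 CPM in library B and 41.1 to 42.7 CPM in the others (0.921), and without that library the difference of null against WT over all stages was -0.29 (edgeR, adjusted p = 0.00957). Averaged over cell types, the same WT library stood among the others, at 5.12 on the log2(CPM + 1) scale.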

How the results depend on the processing

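No paired analysis was possible because the library names carry no replicate number. The *H2-K1* difference over all stages kept its sign and its call in 8 alternatives (-0.47 to -0.34), and leaving out a library gave -0.38 to -0.29, with 0 or 1 members called. The mean over cell types of *H2-K1* kept both in all 19. The 9 other members were called over all stages in 0 alternatives, with *Ifitm2* changing sign in 11 of 24. At a single stage 1 member was called by DESeq2 and 1 with limma on CPM averaged over types, against 0. Members past 0.05 in the mean over types numbered 1 with over 50 cells per library and 1 to 2 when a library was left out, against 2. Within types at E7.5, 1 was called with no filter on low counts (*Irf1* in intermediate mesoderm) and 0 to 1 without a library, against 0. At E8.5, against 1, there were 0 with all stages in 1 fit, 0 with limma-voom, 0 with total counts, 0 with over 50 cells, 2 with no filter (*H2-K1* in mesenchyme added) and 0 without any library. DESeq2 also called 1, but it was *Ifitm1* in erythroid cells. At E9.5, against 1, there were 0 with all stages in 1 fit, 0 with over 50 cells, 5 with no fold threshold and 0 without any library. Fits without a library take all stages together, which alone removes the E8.5 and E9.5 calls. With over 50 cells no type was left at E7.5. The WT step of *H2-D1* from E7.5 to E8.5 turned to -0.32 when types weighed the same. The cause of these changes was not tested. Depth limits *Isg15*, *Irf1* and *Irf9*, which most types could not test.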

Other observations

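In EMP at E9.5, where *H2-K1* did not follow its direction in most other types, *B2m* gave 355, 469, 384 and 323 CPM in the 4 null libraries, 8 and 14 cells in those at 469 and 384 CPM, and 289, 319, 288 and 177 CPM in WT, with a margin of 323 against 319 CPM between the groups. In the fit, which holds 2 of these null libraries, *B2m* did not pass (log2 fold change 0.35 ± 0.22, edgeR adjusted p = 0.776). *H2-K1* gave 95.8, 128, 56.8 and 52.0 CPM against 42.3, 67.8, 46.6 and 47.4 CPM. *Isg15* in the same cells ran from 7.87 CPM in null library A to 62.7, 65.9 and 68.7 CPM in null libraries B, C and D, and from 11.8 to 77.7 CPM in WT.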
